A study of Mus musculus with 18 samples.

Results

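The rRNA-depleted RNA-seq libraries of the sg5 clone were compared with those of the WT line over all rows of the count table that are Entrez genes and not transposable element copies. Of 3749927 rows, 24100 were genes, chosen by the absence of a colon in the row name, and 18561 of these had at least 1 count in the 6 libraries compared, of 18 libraries in the series. After the filter on low counts 13303 genes were tested, 910 of them noncoding. C3H/10T1/2 is a mouse mesenchymal progenitor cell line that can be driven towards fat, cartilage, bone and smooth muscle fates. WT is the C3H/10T1/2 line given an empty Cas9 vector, and sg5 is 1 clone (labelled G7) made with a CRISPR guide against Atrx. Both were transfected, sorted on GFP and grown without differentiation cues, with 3 rRNA-depleted libraries each. A second knockout clone from another guide, sg6, and polyA-selected libraries of all lines were used beside them. The labels do not state that the 3 libraries of a line came from separate cultures, so p-values measure the spread between these libraries. With 1 clone against 1 line, the loss of Atrx and the history of the clone cannot be told apart.

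ATRX is a SWI/SNF-type chromatin remodeler that, with DAXX, places the histone variant H3.3 at repeats and other heterochromatin, and helps maintain H3K9me3 and the silent allele of imprinted genes. Removing ribosomal RNA and leaving out polyA selection keeps transcripts without a polyA tail. These include the RNAs of RNase P and RNase MRP, small nucleolar RNAs (snoRNAs), which guide the modification of ribosomal RNA, and the replication-dependent histone mRNAs, which end in a stem-loop.

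Sequence around the genes on which the results turn is shown first. The windows are the 250 bases before the RefSeq transcript start (GRCm38.p6), written 5′ to 3′ on the strand of the gene, with each CG dinucleotide, the site of DNA methylation in mammals, in capitals. CG reads the same on both strands. Peg3, Emx2, Plagl1 and Ndn are shown because they changed strongly and are imprinted or lie head to head with another gene that changed. H1f1 is shown as the replication-dependent histone gene that changed.
Peg3, chr7:6730420-6730669, minus strand: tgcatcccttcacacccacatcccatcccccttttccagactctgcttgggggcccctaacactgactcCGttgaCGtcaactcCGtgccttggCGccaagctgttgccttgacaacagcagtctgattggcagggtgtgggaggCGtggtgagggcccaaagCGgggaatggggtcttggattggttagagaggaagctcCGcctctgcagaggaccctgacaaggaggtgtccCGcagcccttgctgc
Emx2, chr19:59458440-59458689, plus strand: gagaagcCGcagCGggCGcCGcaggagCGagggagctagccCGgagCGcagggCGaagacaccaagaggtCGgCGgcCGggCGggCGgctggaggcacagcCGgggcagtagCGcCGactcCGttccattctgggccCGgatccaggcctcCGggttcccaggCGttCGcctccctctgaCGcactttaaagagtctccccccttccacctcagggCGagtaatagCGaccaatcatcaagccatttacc
Plagl1, chr10:13090582-13090831, plus strand: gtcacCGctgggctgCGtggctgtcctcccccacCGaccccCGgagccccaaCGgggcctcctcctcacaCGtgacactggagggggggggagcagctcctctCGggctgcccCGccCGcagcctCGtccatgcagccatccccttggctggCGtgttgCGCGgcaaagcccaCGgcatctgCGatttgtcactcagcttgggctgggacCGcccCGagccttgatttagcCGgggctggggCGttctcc
Ndn, chr7:62348027-62348276, plus strand: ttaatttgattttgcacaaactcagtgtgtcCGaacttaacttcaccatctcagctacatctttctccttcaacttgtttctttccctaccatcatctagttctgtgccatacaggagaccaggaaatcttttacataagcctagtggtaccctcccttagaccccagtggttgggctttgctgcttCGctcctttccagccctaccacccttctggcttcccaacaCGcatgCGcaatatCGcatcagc
H1f1, chr13:23763418-23763667, plus strand: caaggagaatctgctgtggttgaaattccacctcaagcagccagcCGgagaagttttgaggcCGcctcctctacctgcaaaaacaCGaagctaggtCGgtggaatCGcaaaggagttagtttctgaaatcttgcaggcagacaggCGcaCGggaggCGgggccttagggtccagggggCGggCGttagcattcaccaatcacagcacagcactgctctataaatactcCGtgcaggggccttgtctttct
The Peg3 window holds 8 CG dinucleotides, and 43.0% of the 32851 RefSeq windows of this length hold as many or more. The Emx2 window holds 24 (12% of windows hold as many or more) and that of Plagl1 holds 19 (19.7%). Ndn has 5 (55.6%) and H1f1 has 11 (35.6%), against a median of 6 over all windows. The Peg3 window contains the start of Usp29 on the other strand (position 6730559), and the Emx2 window contains the start of the antisense gene Emx2os (position 59458635). The mature sequence of mmu-miR-6381, from the 1 microRNA gene called by edgeR, is shown with its seed (bases 2 to 8) in capitals. It lies at chr3:142623925-142623945 on the minus strand.
mmu-miR-6381: cAGGAUGCuggugacaugagu

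Total counts were 23989275, 26821665 and 33187136 in the 3 WT libraries and 27122556, 20135336 and 27302736 in the sg5 libraries, with 84.5 to 89.6% of counts in genes over all 9 rRNA-depleted libraries. The first sg5 library stood apart. Its log2 CPM (a gene's counts scaled to 1e+06 counts of its library) correlated with the other sg5 libraries at r = 0.967 and 0.971 across genes, against 0.988 between those, and at 0.974 with the first sg6 library. Main counts are therefore also given without it, as are the counts of lists that it changed. Among the mesenchymal progenitor markers 17 of 18 were tested, and their summed level was 7220 to 8968 CPM in WT and 9447 to 12394 CPM in sg5. The summed levels of markers of other cell types were 1.85 to 2.40 CPM in WT and 1.28 to 2.18 in sg5 for the immune list and 9.99 to 12.7 against 8.13 to 8.76 for the germline list. Endothelial markers summed to 2.76 to 4.29 CPM in WT and 3.66 to 13.7 in sg5. Epithelial markers summed to 4.04 to 8.92 CPM in WT and 0.11 to 0.71 in sg5. Neural markers summed to 56.2 to 69.5 and 76.4 to 137 CPM.

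Atrx, on chromosome X (105797615 to 105929372, minus strand), had 213, 185 and 222 CPM in WT and 107, 58.4 and 71.0 CPM in sg5. Every sg5 library was below every WT library, and transcript remained in all of them. In bulk libraries fewer cells with a transcript and less of it per cell cannot be told apart. The log2 fold change was -1.39 (SE 0.21, adjusted p = 0.00138), and without the first sg5 library it was -1.64. The polyA libraries gave -1.26 (adjusted p = 9.79e-05). The sg6 clone, compared with the same WT libraries, gave -1.31 (adjusted p = 0.00227).

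A gene is called when its log2 fold change exceeds 1 in either direction and its adjusted p is under 0.05. Of the 13303 genes tested, 405 (3.04%) were called higher in sg5 and 573 (4.31%) lower. Of the noncoding genes 14 of 910 were higher and 31 lower, and 387 and 532 of 12268 protein-coding genes were. Without the first sg5 library 480 genes were higher and 589 lower, of which 332 and 496 were also called with it. The higher count depended most on WT libraries, at 257 without WT library 2 and 207 without WT library 3, where noncoding calls fell to 4 higher each time and to 24 and 16 lower. Of all 13303 genes, 2600 above 0 and 1711 below 0 had an unadjusted edgeR p under 0.05, and DESeq2 called 567 higher and 585 lower.

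**Figure D1:**
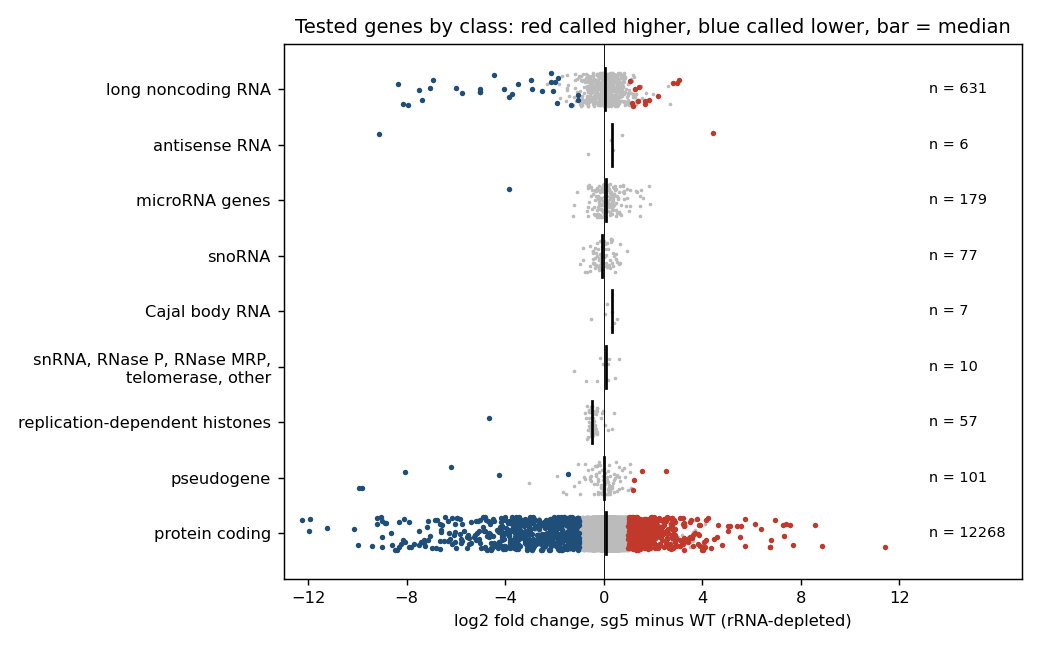
Log2 fold change of sg5 minus WT (horizontal axis) for the tested genes of each class (rows), 1 point per gene, with called genes in red (higher) and blue (lower), the median as a black bar and the number tested at the right. Of the noncoding calls 42 of 45 are long noncoding RNAs, snoRNAs hold no call, and most replication-dependent histone genes lie a little below 0.

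Among RNAs made by RNA polymerase III or acting as catalysts none of the 5 tested members was called, with a median log2 fold change of -0.14 against 0.08 over all genes tested (1 had an unadjusted edgeR p under 0.05, and DESeq2 called none). Rpph1, the RNA of RNase P, which trims tRNA precursors (chromosome 14, 50807447 to 50807771), had 43375, 39960 and 41667 CPM in WT and 43379, 49040 and 48264 CPM in sg5. The highest WT and the lowest sg5 value were nearly equal, with a log2 fold change of 0.17 (SE 0.12, adjusted p = 0.522). Rmrp, the RNA of RNase MRP, which cuts ribosomal RNA precursors, had 24426, 22174 and 20585 CPM in WT against 24986, 25662 and 26204 in sg5. The groups did not overlap, but the log2 fold change of 0.19 did not pass the test (adjusted p = 0.445). Terc, the template RNA of telomerase, read 72.7, 74.1 and 63.0 CPM in WT and 34.7, 41.8 and 49.9 CPM in sg5. All 3 sg5 values lay below the WT values, but the difference did not pass the test (log2 fold change -0.73, SE 0.32, adjusted p = 0.257). In polyA libraries the summed level of this list was 0.56 to 0.99 CPM in WT and 0.6 to 0.62 in sg5, against 62210 to 67876 and 68402 to 74745 CPM here.

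No RNA that guides modification passed the test. None of the 77 snoRNAs tested was called, and their log2 fold changes ran from -0.98 to 0.95 with a median of -0.07. Of these 3 had an unadjusted edgeR p under 0.05, all above 0, against 4311 of all 13303 genes, and DESeq2 called none. None of the 7 Cajal body RNAs, which guide the modification of spliceosomal RNAs, was called either. Snord33, a methylation guide, had 416, 403 and 379 CPM in WT and 507, 515 and 607 CPM in sg5 (log2 fold change 0.44, SE 0.15, adjusted p = 0.135). The groups did not overlap, yet the difference did not pass the test. Each of its 31-base words is also in an exon of its host gene Rpl13a, on the same strand, a ribosomal protein gene with a log2 fold change of 0.51 (adjusted p = 0.0517), so its counts may be those of the host. For Snord96a the values were 342, 356 and 334 CPM against 279, 313 and 356 (adjusted p = 0.719). The Cajal body RNA Scarna10 had 386, 248 and 214 CPM in WT and 371, 381 and 321 CPM in sg5, and Scarna2 had 224, 158 and 136 against 251, 179 and 217, so that both overlapped. The spans of Snord96a and Scarna10 lie on exons of Rack1 and Ncapd2, on the same strands, so their counts may include reads of those genes. Summed over the list of 83 tested snoRNAs and Cajal body RNAs the level was 1252 to 1611 CPM in WT and 1625 to 1747 CPM in sg5.

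Spliceosomal RNAs were thinly covered. Of the 2 tested, Rnu12, the U12 RNA of the minor spliceosome, had 5.30, 4.18 and 4.31 CPM in WT and 4.58, 5.46 and 3.53 CPM in sg5. Rnu11, its U11 partner, had 4.42, 3.22 and 3.48 CPM against 5.06, 4.33 and 3.16, and the groups overlapped for both. Of the 31-base words of Rnu12, 87.6% are shared with other genes, so its reads may belong to a relative such as Gm23502. The 4 ribosomal RNA rows had no counts. Lars2, a mitochondrial leucyl-tRNA synthetase gene listed as a gauge of leftover ribosomal RNA, because a repeat in it resembles ribosomal sequence, had 70.5, 52.2 and 46.0 CPM in WT and 77.4, 95 and 80.9 CPM in sg5 (log2 fold change 0.59, adjusted p = 0.223). No mitochondrially encoded gene had a row.

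Among 179 microRNA genes tested, 1 was called lower and none higher, with a median log2 fold change of 0.11. DESeq2 called the same number lower but 6 higher, against 567 higher of all 13303 genes. An unadjusted edgeR p under 0.05 was found for 20 microRNA genes above 0, against 2600 of all genes. Without the first sg5 library 2 were called lower in the list of microRNA genes and 1 in the RefSeq microRNA class. The rows count fragments over the hairpin spans in libraries that did not select small RNAs. Mir6381, chosen after its value was seen, had 1.39, 0.46 and 1.26 CPM in WT and 0.148, 0.0535 and 0 CPM in sg5 (log2 fold change -3.83, SE 0.76, adjusted p = 0.0111). Its span lies on exons of Gbp2, an interferon-induced GTPase gene on the opposite strand, which fell as well (log2 fold change -3.59, adjusted p = 0.000301). The strand setting of the counting is not given in the sources used here, so reads of a gene and of an antisense partner cannot be told apart.

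Long noncoding RNAs held most noncoding calls, with 13 higher and 29 lower of 631 tested (2.06% and 4.6%, against 3.04% and 4.31% of all genes), and 2 of 6 antisense RNAs were called. Without the first sg5 library 13 were higher and 25 lower, and DESeq2 called 27 and 28. In the shorter list of well-known long noncoding RNAs, 1 of 43 was higher and 1 lower (1 and 2 without the first sg5 library), and the median was 0.11. Malat1 (log2 fold change 0.08, adjusted p = 0.875) and Neat1 (0.39, adjusted p = 0.203), nuclear RNAs of speckles and paraspeckles, and Kcnq1ot1 (0.13, adjusted p = 0.719), the imprinted antisense RNA of Kcnq1, did not pass the test. Xist, the RNA that coats the inactive X chromosome, had 303, 410 and 549 CPM in WT and 212, 232 and 259 CPM in sg5. All sg5 values were below the WT values, but the log2 fold change of -0.84 (SE 0.20, adjusted p = 0.0297) was under the size a call requires. In sg6 it was at 0.166, 0.215 and 0.0842 CPM.

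Of the long noncoding RNAs that were lower, 9430018G01Rik varied little between libraries. It had 12.5, 12.8 and 15.4 CPM in WT and 1.89, 1.55 and 1.86 CPM in sg5 (log2 fold change -2.93, SE 0.22, adjusted p = 6.73e-06). The groups were far apart. C920009B18Rik had 15.1, 12.5 and 15 CPM against 1.85, 3.16 and 2.52 CPM (log2 fold change -2.51, SE 0.23, adjusted p = 3.67e-05), and its groups did not overlap. BC064078 read 5.26, 2.34 and 4.12 CPM in WT and 0.148, 0.0535 and 0 CPM in sg5 (-5.73, SE 0.60, adjusted p = 9.25e-05). For 3300005D01Rik the values were 6.06, 8.18 and 5.38 CPM against 0.702, 0.856 and 1.04 CPM (-2.91, SE 0.37, adjusted p = 0.000425). In polyA libraries the log2 fold changes of these 4 were below 0 as well, at -3.19, -0.97, -4.18 and -1.58 in this order.

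Among the higher long noncoding RNAs, Peg13, an imprinted RNA expressed from within Trappc9, had 7.36, 5.74 and 5.22 CPM in WT and 24.4, 18.3 and 15 CPM in sg5 (log2 fold change 1.66, SE 0.22, adjusted p = 0.000514). It passed in each of the 9 fits that left out 1 library. 1700034H15Rik had 2.31, 1.63 and 1.12 CPM against 4.62, 4.76 and 4.08 CPM (1.42, adjusted p = 0.0157), and A930019D19Rik had 0.421, 0.425 and 0.562 CPM against 1.96, 1.44 and 1.67 CPM (1.83, adjusted p = 0.0172). Both passed in 6 of the 9 fits that left out 1 library. They overlap Slc30a1, a zinc exporter gene, and Ralgapa2, and these protein-coding genes rose too (1.48 and 1.84). Gm13031 was at 7.10 CPM in the first sg5 library and at 1.5 and 1.67 in the others, with 0.673, 0.354 and 0.241 CPM in WT. It overlaps Padi2, a peptidylarginine deiminase gene, and its call (3.07, adjusted p = 0.0484) was lost without the first sg5 library (1.98, adjusted p = 0.154). 4632404H12Rik had 1.05, 0.531 and 0.722 CPM against 2.14, 1.82 and 1.97 CPM, and its log2 fold change of 1.37 (adjusted p = 0.0281) passed in 3 of the 9 fits that left out 1 library. Gm13031 passed in 5 of the 9. In polyA libraries Peg13 rose as well (1.27, adjusted p = 1.09e-05). 1700034H15Rik, A930019D19Rik, Gm13031 and 4632404H12Rik did not pass the test there (0.20, 0.67, 0.06 and 0.18, adjusted p = 0.533, 0.304, 0.975 and 0.513).

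Overlap with other genes was common among noncoding genes. Of the 910 tested, 707 (77.7%) overlap another RefSeq gene, as do 9 of the 14 called higher (64.3%) and 16 of the 31 called lower (51.6%). An overlapped gene was called in the same direction for 5 of the 14 and 6 of the 31, and the part that shared reads play in these calls was not tested.

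**Figure D2:**
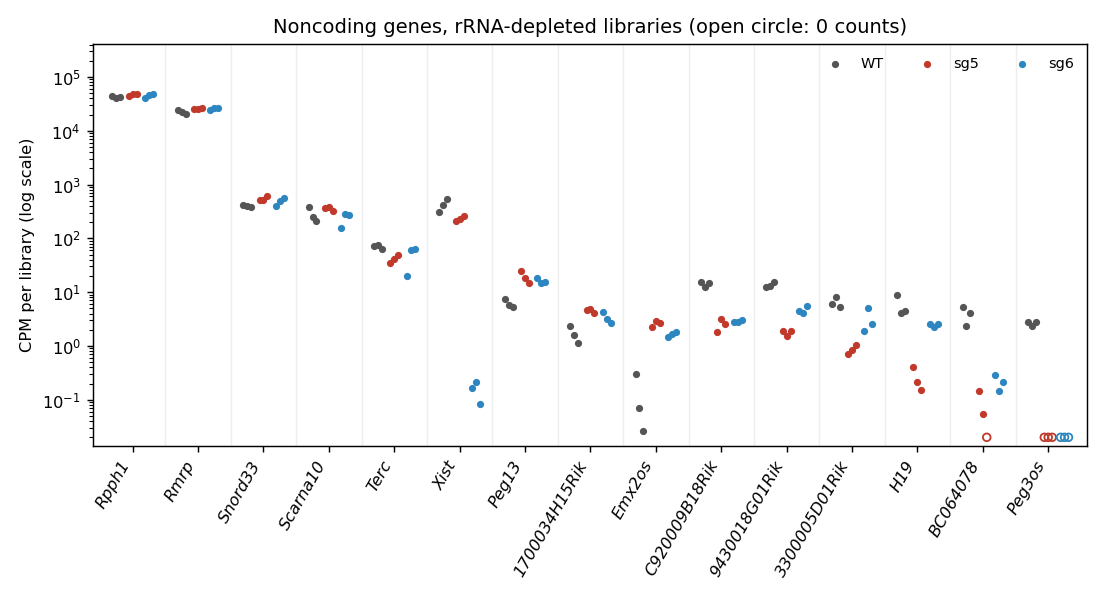
CPM in each rRNA-depleted library (logarithmic vertical axis) for 15 noncoding genes, with 3 WT (grey), 3 sg5 (red) and 3 sg6 (blue) points per gene and open circles at the foot of the axis for libraries with 0 counts. RNase P and RNase MRP RNAs lie close together in all lines, while Emx2os is higher in every sg5 library than in any WT library and Peg3os is at 0 in all sg5 libraries.

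The antisense pair of calls was Emx2os and Peg3os. Emx2os, antisense to the homeobox gene Emx2 and starting 54 bases from it, had 0.294, 0.0708 and 0.0267 CPM in WT and 2.26, 2.89 and 2.64 CPM in sg5 (log2 fold change 4.42, SE 0.52, adjusted p = 0.000221). Emx2, a developmental transcription factor gene chosen after its values were seen, rose with it, from 0.252, 0.142 and 0.0802 CPM to 0.850, 1.77 and 1.78 CPM (3.24, SE 0.50, adjusted p = 0.00176). Both were also higher in polyA libraries (2.03 and 3.40). They share the window printed above under Emx2.

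Several imprinted genes, which are expressed from 1 parental allele, were called, some lower and some higher. The genes in this paragraph and the next other than H19, Peg13 and Peg10 were chosen after their values were seen, and no full list of imprinted genes was counted. Peg3os, an antisense RNA at chromosome 7 (6706760 to 6707624) within Peg3, had 2.82, 2.34 and 2.78 CPM in WT and no count in any sg5 library. Against 3 counts per library it was at least 20.7-fold lower (adjusted p = 0.000112). The span of Peg3os lies on exons of Peg3, which fell as well, so its reads may be those of Peg3. Peg3os had no counts in the polyA libraries. Peg3, a zinc finger gene expressed from the paternal allele, had 35.9, 28.4 and 31.9 CPM in WT and 0.407, 0 and 0 CPM in sg5 (log2 fold change -7.71, SE 0.63, adjusted p = 1.34e-05), and -7.74 in polyA. Usp29 lies on the other strand, with 96 bases between its RefSeq gene span and that of Peg3. The transcript starts used for the sequence windows lie 164 bases apart. Usp29 was too low to be tested, at 0.294, 0.0354 and 0.0802 CPM in WT against 0.0739, 0 and 0 in sg5.

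H19, a maternally expressed RNA, had 8.79, 4.07 and 4.44 CPM in WT and 0.407, 0.214 and 0.149 CPM in sg5 (log2 fold change -4.44, SE 0.43, adjusted p = 4.91e-05), and -4.53 in polyA. Plagl1, a paternally expressed zinc finger regulator, fell from 7.53, 6.41 and 5.62 CPM to 0.111, 0 and 0.149 CPM (-6.03, SE 0.47, adjusted p = 7.49e-06). These 2 genes nearly vanished, with no overlap between lines. Others went the opposite way. Peg10, a retrotransposon-derived gene, had 0.0841, 0.531 and 0.241 CPM in WT and 8.95, 18.4 and 14.6 CPM in sg5 (5.56, SE 0.61, adjusted p = 0.000122). Sgce, which encodes epsilon-sarcoglycan and starts 101 bases from Peg10 in the other direction, rose from 2.57, 1.63 and 2.65 CPM to 46.1, 35.7 and 34.8 CPM (4.09, SE 0.24, adjusted p = 8.72e-07). Ndn, which encodes the growth suppressor necdin, rose from 14.7, 11.8 and 12.9 CPM to 47.3, 36.5 and 37.4 CPM (1.62, SE 0.17, adjusted p = 8.04e-05). Grb10, an adaptor that dampens insulin and growth factor signalling, rose from 247, 209 and 182 CPM to 517, 552 and 490 CPM (1.29, SE 0.14, adjusted p = 0.000132). Igf2r (0.17, adjusted p = 0.789), Impact (0.17, adjusted p = 0.739) and Mest (0.18, adjusted p = 0.863), which are imprinted too, did not pass the test.

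**Figure D3:**
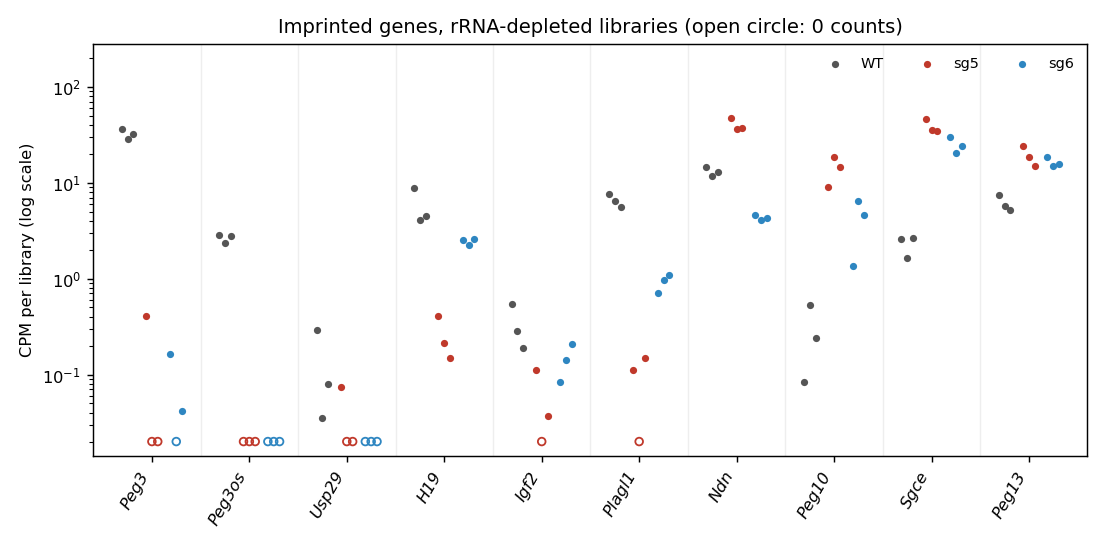
CPM in each rRNA-depleted library (logarithmic vertical axis) for 10 imprinted or neighbouring genes, with 3 WT (grey), 3 sg5 (red) and 3 sg6 (blue) points per gene and open circles at the foot of the axis for 0 counts. In sg5, Peg3, Peg3os, H19 and Plagl1 lie below all WT libraries and Ndn, Peg10, Sgce and Peg13 above them, and Ndn lies below WT in sg6.

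The replication-dependent histone genes, whose mRNAs lack a polyA tail, lay mostly below 0, but almost none passed the test. Of 57 tested 1 (1.75%) was called lower, against 4.31% of all genes, and none higher, by edgeR and by DESeq2. An unadjusted edgeR p under 0.05 was found for 12, all below 0, against 1711 below 0 of all 13303 genes. Of the 57, 53 were below 0, while 7636 of the 13303 genes were above 0. The median log2 fold change was -0.47 against 0.08 over all genes. In polyA libraries the median was 0.15, but there the list summed to only 61.7 to 88.0 CPM in WT and 73.6 to 112.5 CPM in sg5. Summed over the list the level in rRNA-depleted libraries was 36198, 34053 and 24053 CPM in WT and 15053, 26894 and 27299 CPM in sg5. The groups overlapped, since sg5 libraries 2 and 3 were above WT library 3, and the first sg5 library was the lowest. Top2a, a topoisomerase gene of cycling cells, was also lowest there, with 917, 916 and 742 CPM in WT and 238, 525 and 461 CPM in sg5. Its call (-1.07, adjusted p = 0.031) was lost without that library (-0.77, adjusted p = 0.061). The part of cell cycle state in the histone values was not tested.

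H1f1, a linker histone gene on chromosome 13, was the exception. It had 263, 203 and 159 CPM in WT and 4.29, 10.9 and 9.80 CPM in sg5, so that no library of the lines overlapped. The log2 fold change was -4.65 (SE 0.37, adjusted p = 9.5e-06), and -4.30 without the first sg5 library. In sg6 it was at 77.5, 164 and 114 CPM (-0.81 against the same WT libraries, adjusted p = 0.269), and sg5 was below sg6 by -3.83 (adjusted p = 0.000113). In polyA libraries it was near 0, at 0.103 ± 0.118 CPM in WT and 0.0164 ± 0.00758 in sg5 (SD, n = 3 each). Among 11 replacement histone genes, whose mRNAs are polyadenylated, Macroh2a2, a macroH2A gene linked to silent chromatin, was called lower. It had 31.1, 27.4 and 29.4 CPM in WT and 10.0, 9.85 and 9.62 CPM in sg5 (-1.58, SE 0.16, adjusted p = 7.8e-05).

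The 10 highest genes, among those whose log2 CPM averaged 1 or more and whose libraries did not overlap between lines, were as follows. Bves, which encodes a membrane protein of muscle and epithelium, had no counts in WT and 7.58, 17.2 and 14.6 CPM in sg5, at least 126-fold higher against 3 counts per library (adjusted p = 5.86e-06). Trim44, a ubiquitin pathway gene, was all but absent from WT at 0.0841, 0.0708 and 0 CPM, and had 14.7, 23.2 and 19.8 CPM in sg5 (log2 fold change 8.59, SE 0.44, adjusted p = 2.29e-07). C1qtnf3, which encodes a secreted C1q/TNF-related protein, rose from 6.39, 2.34 and 4.04 CPM to 703, 776 and 671 CPM (7.40, SE 0.51, adjusted p = 2.86e-06). The libraries of the lines were far apart for all of them. Sema3e (7.68), a semaphorin, Fbln7 (5.73), a fibulin, Frzb (5.4), a Wnt antagonist, Kcne2 (5.05), a potassium channel subunit, Colgalt2 (5.03), a collagen-modifying enzyme, and Apba1 (4.65), an adaptor, completed the 10 with Peg10. Among abundant genes, Lox, the collagen cross-linking enzyme, had 603, 679 and 639 CPM in WT and 1058, 2371 and 1637 CPM in sg5 (1.40, SE 0.24, adjusted p = 0.00398), and Slc5a3, an inositol transporter, and Fbln5 rose by 2.09 and 1.43.

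The lowest genes by the same rule included several with no counts in sg5. Xlr3c, an X-linked lymphocyte-regulated gene, had 22.4, 20.4 and 27.2 CPM in WT and no counts in sg5, at least 183-fold lower, though 82.2% of its 31-base words are shared with other genes and its reads may belong to a relative such as Xlr3a. Nxf3, Efemp1 (a fibulin-like matrix gene) and Gpr149 also had no counts in sg5, and were at least 149-fold, 144-fold and 88.3-fold lower. Eya1, a developmental regulator, had 1 count in all sg5 libraries together against 5.68, 7.05 and 7.38 CPM in WT, a ratio of 496 with an exact interval of 88.7 to 1.96e+04 that covers counting error only. Pde3b and Ptpn13 also had 1 count in sg5, with ratios of 690 and 637, and Serpina3g and Klhl13 had ratios of 371 and 351. Among abundant genes Ccn3, a matricellular growth regulator, fell from 472, 195 and 408 CPM to 124, 81.8 and 62.5 CPM (-2, SE 0.36, adjusted p = 0.00545), and Cd109, a TGF-beta co-receptor, from 165, 197 and 179 to 81.8, 85.6 and 87.2 CPM (-1.09, adjusted p = 0.000991). In polyA libraries Ccn3 had a log2 fold change of 0.20 (adjusted p = 0.812) and Cd109 one of -0.20 (adjusted p = 0.501). The difference between the kinds of library did not pass the test for either gene (adjusted p = 0.179 and 0.176).

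Of 16 tested adipogenic genes 6 were called higher and none lower (5 without the first sg5 library and 5 by DESeq2), against 3.04% of all genes, and the median was 0.61. Pparg, the master regulator of fat cell formation, had 15.4, 8.82 and 7.57 CPM in WT and 70.3, 47.2 and 34.5 CPM in sg5 (log2 fold change 2.26, SE 0.31, adjusted p = 0.000691). The other 5 were Cebpa (1.51, adjusted p = 0.00129), its partner, Fabp4 (3.25, adjusted p = 0.00859), a fatty acid carrier, Lpl (2.11, adjusted p = 0.0221), the lipoprotein lipase, Plin4 (1.70, adjusted p = 0.0185), a lipid droplet coat gene, and Dgat2 (2.34, adjusted p = 0.0472), a triglyceride synthase. The call of Dgat2 was lost without the first sg5 library (1.43, adjusted p = 0.131). In polyA libraries Dgat2 (0.55, adjusted p = 0.529) and Plin4 (0.90, adjusted p = 0.0543) did not pass the test, while Pparg, Fabp4 and Lpl did.

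Of 11 smooth muscle genes 3 were called higher and 1 lower, with a median of 0.43, against 3.04% higher and 4.31% lower of all genes. Without the first sg5 library 4 were higher and 1 lower. Acta2, smooth muscle actin, had 268, 170 and 185 CPM in WT and 320, 995 and 1006 CPM in sg5 (1.90, SE 0.34, adjusted p = 0.00513), with the first sg5 library far below the others. Actg2, an actin of visceral muscle, and Tpm1, a tropomyosin, rose by 4.22 and 1.03, and the integrin Itga8 fell by 4.45. Tpm1 did not pass the test in polyA libraries (0.38, adjusted p = 0.127), while Acta2, Actg2 and Itga8 did. Of 12 chondrogenic genes 4 were higher and 1 lower, with a median of 0.98. Sox9, the regulator of cartilage formation, had 54.2, 54.8 and 59.1 CPM in WT and 104, 235 and 106 CPM in sg5 (1.40, SE 0.29, adjusted p = 0.015), and Sox6 (1.12), Matn4 (3.69) and Col2a1 (1.13) rose with it, while the link protein gene Hapln1 fell by 2.88. Sox9, Sox6 and Col2a1 passed in 6, 7 and 5 of the 9 fits that left out 1 library, and without sg5 library 2 the log2 fold changes of Sox9 and Col2a1 were 0.96 and 0.67. In polyA libraries those of Sox9, Sox6 and Col2a1 were 0.33, 0.31 and 0.48, and none passed the test (adjusted p = 0.394, 0.442 and 0.374). Of 8 osteogenic genes 1 was called each way, Omd (1.90), a bone proteoglycan, and Phex (-2.21), a phosphate regulator, with a median of -0.04 (1 higher and 2 lower without the first sg5 library). Collagens were called higher for 7 and lower for 2 of 35 (median 0.49), and for 9 and 4 without that library, including Col8a2 (3.82) and Col23a1 (-3.45).

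Of 17 mesenchymal progenitor markers tested, 1 was higher and 1 lower, with a median of -0.10. That is 5.88% each way, against 3.04% higher and 4.31% lower of all genes. Eng, the TGF-beta co-receptor endoglin, had 3.95, 4.64 and 3.56 CPM in WT and 9.72, 28.7 and 12.7 CPM in sg5 (2.07, SE 0.33, adjusted p = 0.00228). Etv1, an ETS transcription factor, fell from 12.7, 18.4 and 13.7 CPM to 1.11, 1.23 and 1.60 CPM (-3.50, SE 0.29, adjusted p = 1.34e-05). Of the markers of other cell types that could be tested, Tek, an endothelial receptor, rose (1.75, adjusted p = 0.0352), both epithelial genes fell, and the germline homeobox gene Rhox5 fell by 3.01. Cdh1, E-cadherin, had 1.51, 2.94 and 2.09 CPM in WT and 0, 0.107 and 0.334 in sg5, and the keratin Krt14 had 2.48, 5.88 and 2.51 CPM and then 0, 0 and 0.111. None of the 3 neural genes was called by edgeR or DESeq2, though all 3 had an unadjusted edgeR p under 0.05 (4311 of all 13303 genes did). The 1 immune gene tested, Cd68, was not called. Map2, a microtubule-associated protein gene of neurons, had 54.9, 63.0 and 49.0 CPM in WT and 45.0, 126 and 123 CPM in sg5. It was called without the first sg5 library (1.20, adjusted p = 0.00555) and in polyA libraries (1.08, adjusted p = 0.0254).

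Interferon-response genes held 8 lower calls and no higher call of 23 tested, against 4.31% of all genes, with a median of -1.04 and with 12 lower without the first sg5 library. DESeq2 called 8 lower and 1 higher. Summed over the list the level was 511, 284 and 431 CPM in WT and 512, 365 and 338 CPM in sg5, so the groups overlapped. Isg15, a ubiquitin-like modifier, had 2.44, 1.06 and 1.66 CPM in WT and 0.111, 0.0535 and 0.149 CPM in sg5 (-3.92, SE 0.52, adjusted p = 0.000533). Ifit1, which binds viral RNA, had 19, 6.09 and 20.2 CPM against 5.51, 1.55 and 1.52 CPM (-2.38, SE 0.55, adjusted p = 0.0261). It passed in 5 of the 9 fits that left out 1 library, and in polyA libraries it was at -1.01 (adjusted p = 0.299). Mx1 had 1.68, 0.850 and 1.63 CPM against 0.111, 0 and 0.0743 CPM (-4.27, SE 0.65, adjusted p = 0.00168). No sg5 library reached the WT values of these genes. The others were Ifi44, Oas1a, Oas2, Gbp2 and Parp14. In the list of ATRX partners and H3K9 methylation genes, 1 of 20 was higher, Mphosph8, a reader of H3K9 methylation in the HUSH complex (11.1, 14 and 11.1 CPM against 21.8, 34.2 and 26.9 CPM, 1.19, adjusted p = 0.00469), and 1 lower, Atrx itself. The partner Daxx (0.01, adjusted p = 0.991) and the methyltransferase Setdb1 (-0.05, adjusted p = 0.92) did not pass. Of 345 zinc finger genes 3 were higher and 3 lower, with a median of 0.07, and 5 and 1 without the first sg5 library.

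Clustered protocadherins, neuronal adhesion genes on chromosome 18, were called higher for 7 of 38 and lower for none, against 3.04% of all genes called higher, with a median of 1.03. Without the first sg5 library 5 were called, and DESeq2 called 16. The calls are not separate, since Pcdhga6 and Pcdhgc3 share exons with each other and with Pcdhgb1 and Pcdhgc4, which were called too, and 46.1% of the 31-base words of Pcdhga6 are in other genes. The whole chromosome leaned the same way. The median over its 376 tested genes was 0.55, against 0.08 for all genes, and 3 protocadherin calls remained after each chromosome's median was subtracted. Chromosomes 12 (0.38), 8 (0.37), 2 (0.28) and 14 (0.27) also had raised medians, and chromosome 11 a lowered one (-0.26). Chromosome X held 47 lower calls among 452 genes (10.4%, against 4.31% overall). Centred on the chromosome medians, 323 genes were higher and 559 lower, of which noncoding genes made up 12 and 30, and the 7 higher collagen calls became 3. Whether copy number differs between the lines was not tested.

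**Figure D4:**
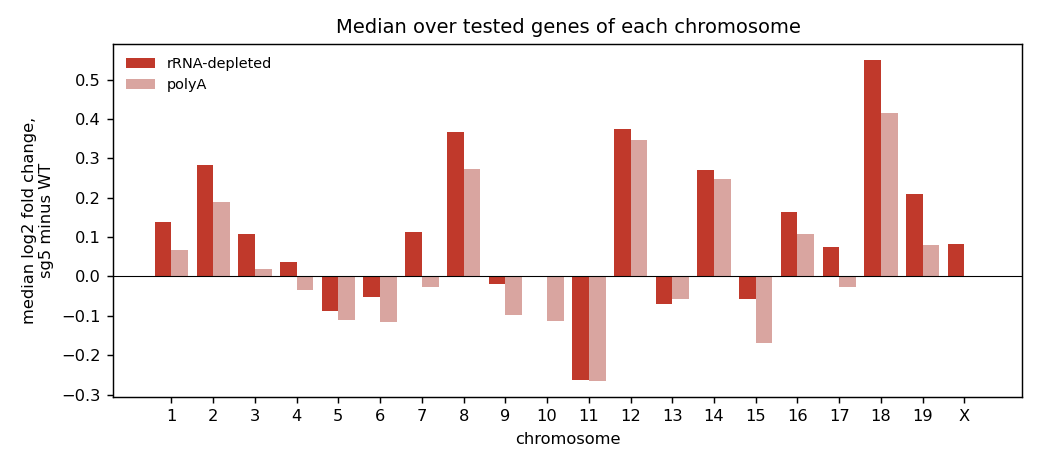
Median log2 fold change of sg5 minus WT (vertical axis) over the tested genes of each chromosome (horizontal axis), in rRNA-depleted (dark bars) and polyA libraries (light bars). Chromosome 18 has the highest median and chromosome 11 the lowest in both kinds of library.

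The polyA libraries are separate samples of the same lines, and in the fit over all 18 libraries 419 of 14945 genes (2.8%) were higher and 926 (6.2%) lower in sg5. Total counts of the polyA libraries were 27544833, 80772108 and 41611927 in WT and 161036799, 235346363 and 163221618 in sg5. Depth thus went with the line there, and its part in the polyA values was not tested. Of the 405 genes called higher here, 401 were above 0 in polyA libraries, 212 were called higher there and 0 lower. Of the 573 called lower, 559 were below 0, 410 were called lower and 1 higher, the phosphatase gene Dusp23. For all 13303 genes the polyA calls were 2.74% higher and 5.25% lower. Noncoding genes followed the same order, as all 14 higher genes were above 0 with 4 called, and 28 of 31 lower genes were below 0 with 21 called.

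**Figure D5:**
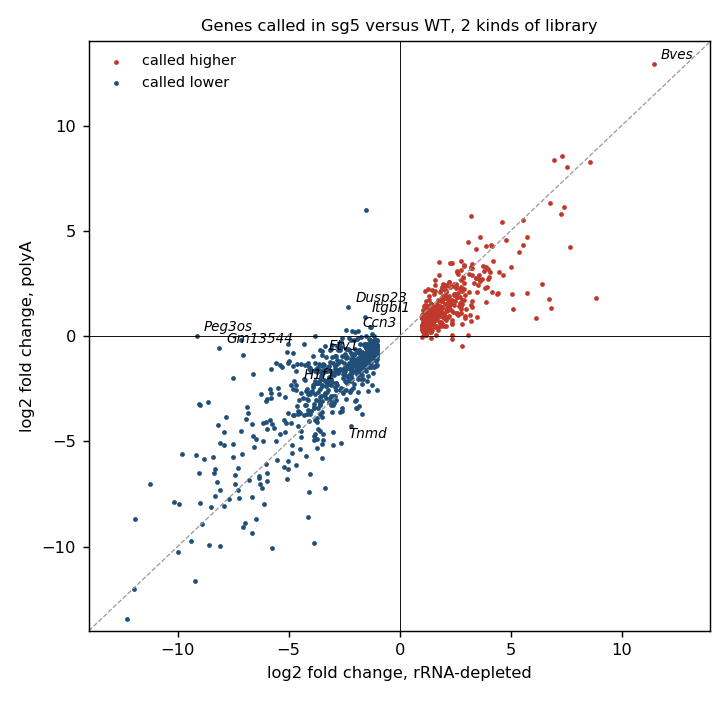
Log2 fold change of sg5 minus WT in rRNA-depleted (horizontal axis) and polyA libraries (vertical axis) for the 978 genes called in rRNA-depleted libraries, with genes called higher in red, lower in blue and equality as a dashed line. Most points lie in the quadrants where both kinds of library have the same sign, and Dusp23 and Itgbl1 lie above 0 in polyA and below 0 in rRNA-depleted libraries.

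The difference between the 2 kinds of library was tested as an interaction over genes present in both tables. The sg5 effect was higher in rRNA-depleted libraries for 19 genes (0.127%) and lower for 43 (0.288%) of 14945, and for noncoding genes 0 and 6. Those 6 were Gm13544, G730013B05Rik, Gm2560, 2810429I04Rik, Platr14 and C920009B18Rik, named after their values were seen. Gm13544 had 1.35, 1.27 and 1.36 CPM in WT and no counts in sg5 here, but 4.52 ± 0.699 and 3.04 ± 0.241 CPM in polyA libraries (SD, n = 3 each). Platr14 had 0.421, 0.921 and 1.12 CPM against 0.0739, 0.107 and 0.0371 CPM here, and 1.89 ± 0.337 against 1.17 ± 0.157 in polyA. C920009B18Rik had the interaction -1.59 (SE 0.21, adjusted p = 0.00304). Its log2 fold change was -2.51 here and -0.97 in polyA libraries.

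Among protein-coding genes Clvs1, a vesicle lipid-binding protein gene, gave 13.3, 14.5 and 12.8 CPM in WT and 14.1, 11.9 and 10.9 CPM in sg5 here, but fell by 3.62 in polyA libraries (interaction 3.44, SE 0.22, adjusted p = 1.26e-06). Itgbl1, an integrin-related gene, fell by 1.58 here, from 31.1, 32.7 and 38.9 CPM to 15.7, 8.24 and 10.4 CPM, while in polyA its log2 fold change was 0.91 (interaction -2.53, adjusted p = 0.00374). Dusp23 (-3.75, adjusted p = 0.0151), Etv1 (-2.64, adjusted p = 0.0439) and the tendon gene Tnmd (2.41, adjusted p = 0.0241) were also among them, and these genes were named after their values were seen. Per the methods of the study, the kinds of library were also prepared and sequenced by different facilities and counted with different software. Library kind, facility and counting method cannot be told apart.

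Compared directly, sg5 was above sg6 for 74 genes (0.556% of those tested) and below it for 123 (0.925%), 6 noncoding genes each way. With the replicate number as a block, which treats libraries of the same number as pairs, it was 136 and 156. Ndn went in opposite directions, with 4.55, 4.12 and 4.25 CPM in sg6 against the higher sg5 values above, a difference of 3.23 (adjusted p = 5.93e-07). H19 was lower in sg5 than in sg6, where its log2 fold change against WT was -1.24 (difference -3.21, adjusted p = 0.00316). In polyA libraries H19 was low in both clones, at -4.53 in sg5 and -4.56 in sg6 against WT. The clones also share the WT libraries, so their comparisons with WT are not independent of each other.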

How the data were processed

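The rRNA-depleted table, as deposited by the authors, holds raw read counts per gene and per transposable element copy. Per the labels and the methods of the study, reads were aligned with STAR and counted with TElocal, which shares multi-mapped reads between copies. The polyA tables hold estimated counts per gene, which the authors made with Salmon 0.8.2, and these were rounded here. Reads were aligned to mm10 per those methods. The strand setting and the gene annotation used in counting with TElocal are not given in the sources used here. No column of values was left unmapped.

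All rows of the rRNA-depleted table were filtered with filterByExpr (minimum count 10, minimum total 15, large group size 10, proportion 0.7), scaled by TMM and fitted over 9 libraries in 3 groups with the edgeR 4.0.16 quasi-likelihood test (R 4.3.3, limma 3.58.1). Adjusted p-values are Benjamini-Hochberg values over all 56086 features tested (13303 genes). CPM is counts per 1e+06 of the TMM-scaled total and is not corrected for gene length. The polyA values and the interaction come from the same test on 18 libraries (14945 genes). Genes were called at a log2 fold change beyond 1 and an adjusted p under 0.05. Folds against groups without counts are bounds from 3 counts per library. With 1 to 3 counts in a group the ratio has an exact 95% interval. Gene classes came from RefSeq GRCm38.p6, in which 24045 of 24100 rows were found. Sequence windows are from the same source, and Peg10, Sgce, H19, Peg13, Bves, Emx2os and Peg3os had no window.

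The genes named are Atrx, for each list or class up to 5 called genes at each end (average log2 CPM of at least 0, no overlap between libraries; the 2 most abundant members where none passed), the 10 highest and 10 lowest of all genes (average log2 CPM of at least 1), and the 5 most abundant called each way. Genes named outside this rule, among them Malat1, Neat1, Kcnq1ot1, Cebpa, Isg15, Mx1, Tek, Cdh1, Daxx and Setdb1 and the imprinted genes other than H19, Peg13 and Peg10, were chosen after their values were seen. Some genes that met the rule are not reported here. Members and lists were chosen with earlier results of these data known. Counts were simulated for the 56086 features. For sg5 against WT 75 of 100 genes changed by a log2 fold change of 1.5 were recovered, and 93 of 100 changed by 3. The 6 false calls were counted among genes alone, not among transposable element copies. For the interaction it was 67 and 85 of 100, with 10 false calls among 14945 genes. Alternatives were DESeq2 1.42.0, other scaling, no filter, stricter thresholds, a replicate block, leaving out each library, and centring on chromosome medians, which was added after seeing the data. Libraries of a line differed beyond sampling noise, so none was merged. The correlation of deviations from the group means between libraries of the same number was -0.229 to 0.402 for WT and sg5, so the numbers were not taken as pairs there. It was 0.174 to 0.638 for sg5 and sg6 (WT and sg6, 0.114 to 0.544). Libraries of different numbers gave -0.605 to 0.555 for sg5 and sg6, so the data do not settle a pairing there either. The labels state none, and the main fit used no block.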

Additional observations from a re-analysis of the deposited data

Results flagged for a closer look

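Among the named genes 17 differed between the sg5 and sg6 clones by the test of the difference itself, at an adjusted p under 0.05 and a log2 difference beyond 1. Of all genes tested, 0.556% were higher in sg5 than in sg6 and 0.925% lower. The named genes were mostly picked for their calls in sg5 against WT or after their values were seen. The 17 can therefore not be weighed against those shares. Groups of 3 libraries are too small for a test of single outlying libraries.

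Genes lower in sg5 than in sg6, as the log2 difference of sg5 minus sg6, were Efemp1 (-10.01), Nxf3 (-7.52), Serpina3g (-4.82), H1f1 (-3.83), Plagl1 (-3.22), H19 (-3.21), Lpl (-2.46), 3300005D01Rik (-1.86), Hapln1 (-1.76), Etv1 (-1.59) and 9430018G01Rik (-1.41). The first 2 had no counts in sg5, so their values depend on the prior count of the fit and are not bounds. In polyA libraries, against WT, H19 was at -4.53 in sg5 and -4.56 in sg6, and Etv1 at -0.90 and -1.17 in the same order. Genes higher in sg5 than in sg6 were Xist (10.49), Ndn (3.23), Kcne2 (3.12), Col8a2 (2.14), Bves (1.95) and Pcdhb14 (1.95). Pcdhb14 had 21.1, 11.2 and 7.5 CPM in sg5 and lost its call against WT without the first sg5 library (1.01, adjusted p = 0.105).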

How the results depend on the processing

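No alternative reversed a called result. For genes called in sg5 against WT (405 higher, 573 lower), the counts were 547 and 689 with a replicate block and 567 and 585 with DESeq2, the other scalings gave 348 to 454 and 542 to 605, and genes alone in the fit 414 and 687. The block kept 400 of the higher and 565 of the lower genes, and WT and sg5 libraries were not taken to share more than a number. Without the filter 624 were higher and 601 lower, and without sg5 replicate 3 it was 495 and 460, so that more genes were higher than lower in these fits. Testing against a fold of 1 on the log2 scale (the test against 1) left 114 and 310, and the stricter threshold, 2 on that scale and an adjusted p of 0.01, left 114 and 304. Leaving out 1 library gave 207 to 535 higher and 436 to 589 lower.

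For noncoding genes (14 and 31) the block gave 31 and 36, DESeq2 34 and 30, and no filter 22 and 32. The test against 1 gave 2 and 19, the stricter threshold 2 and 18, and leaving out 1 library 4 to 26 and 16 to 33. For sg5 against sg6 (74 and 123) the block gave 136 higher, DESeq2 126, no filter 195, the 2 lines alone 42 and 70, 25 and 33 came from the test against 1, the stricter threshold 31 and 39, and leaving out 1 library 40 to 130 and 75 to 131. For the library kinds (19 and 43) the block gave 49 and 82, DESeq2 69 and 131, only WT and sg5 libraries 6 and 27, 1 and 4 came from the test against 1, the stricter threshold 2 and 7, and leaving out 1 library 3 to 21 and 16 to 39. The causes were not tested.

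Of 88 named genes with a call, 1 lost it with DESeq2 (Dgat2), 4 with scaling on genes alone, 2 with genes alone in the fit, 3 without the filter, 2 with the 2 lines alone, none with the replicate block, and 36 with the test against 1 or the stricter threshold. Leaving out 1 library lost 82 of 792 calls. The median of all genes was 0.08, and 0.014 to 0.127 under other scalings.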
